A study of Mus musculus with 21 samples.

Results

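Pax6, Neurod1, Sox1, Sox21 and Nes are genes best known from neural progenitors and young neurons, and their RNA was followed here through 4 stages of mouse pluripotency. They were chosen by name as the 5 rows of a deposited count table that carry these symbols, out of 39396 genes, and all 5 passed the filter on low counts. The series holds 21 RNA sequencing libraries, 3 from each of 7 combinations of line and stage, and places the stages along a continuum of pluripotency. Epiblast stem cells (EpiSCs) were present for the line A2 alone: per the labels' protocols, A2 cells were implanted in a pseudopregnant mouse, recovered after implantation and kept in KO DMEM/KOSR with activin A and bFGF. Early primitive ectoderm-like (EPL) cells of the lines D3 and A2 had spent 4 days in 10% serum, in a medium for which 2i is not listed, with 330 U/mL of the cytokine LIF and 400 uM L-proline. Naive mouse embryonic stem cells (mESCs) of both lines were ground-state cells from which 2i, a pair of kinase inhibitors, had been taken away for 4 days. Ground-state mESCs of both lines grew in 10% serum with 1000 U/mL LIF and 2i. The labels derive the mESCs from the inner cell mass and give no genotype, strain, sex or number of clones for either line. Nothing in the labels says that libraries of 1 group were grown apart. The p-values therefore speak of the spread among these libraries, which may be technical.

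In the embryo, the epiblast gives rise to the neural plate, where SoxB1 factors such as Sox1 mark cells that have taken the neural path. Pax6, a paired-box and homeobox factor, then patterns the forebrain, eye and spinal cord, and proneural factors of the basic helix-loop-helix (bHLH) family, among them Neurod1, drive progenitors to become neurons. Sox21, a SoxB2 factor, acts with and against SoxB1 factors, and Nes encodes nestin, an intermediate filament of dividing neural progenitors that is also made in muscle precursors, endothelium and many cultured fibroblasts. Pax6 and Neurod1 are in addition needed for hormone-producing cells of the pancreas.

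The genes did not move as a group. Pax6 and Neurod1 were lowest with 2i and were 32.9-fold and 10.1-fold higher in naive cells, as the mean of both lines. Sox21 had the opposite pattern, with its highest levels in ground-state cells. Sox1 fell in EPL cells and was highest in EpiSCs, and Nes was highest in EpiSCs and second highest in D3 EPL cells. Between their highest and lowest groups, mean levels spanned 63.1-fold for Pax6, 18.9-fold for Neurod1, 16-fold for Sox1, 20.2-fold for Sox21 and 21.9-fold for Nes.

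Levels are given as CPM, counts scaled to a common library size with factors from the trimmed mean of M-values (TMM). Total counts ranged from 15320599 to 23490527 per library, so that 1 read was a small fraction of 1 CPM in every library. Log2 differences carry a standard error (SE) from 1 edgeR quasi-likelihood fit of all 21 libraries, and a gene was called at a Benjamini-Hochberg adjusted p below 0.05 over 16575 genes. In these bulk samples, fewer cells expressing a gene and less of its RNA per cell cannot be told apart. The EpiSC libraries stand apart from the others and did not match every expectation of their label. Fgf5, a marker of the primed epiblast, averaged 12.7 CPM in EpiSCs against 4.51 CPM in A2 EPL cells, but Otx2 averaged 13.2 CPM against 59.1 CPM and Dnmt3b 90.3 CPM against 792 CPM, and the naive markers Zfp42, Esrrb and Klf4 were present in EpiSCs at 317, 237 and 141 CPM. All 16 listed fibroblast markers were detected in each EpiSC library, with summed levels of 2964 to 4075 CPM, against 24.6 to 42.5 CPM in the other 18 libraries, where 2 to 6 of the 16 had no count.

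**Figure D1:**
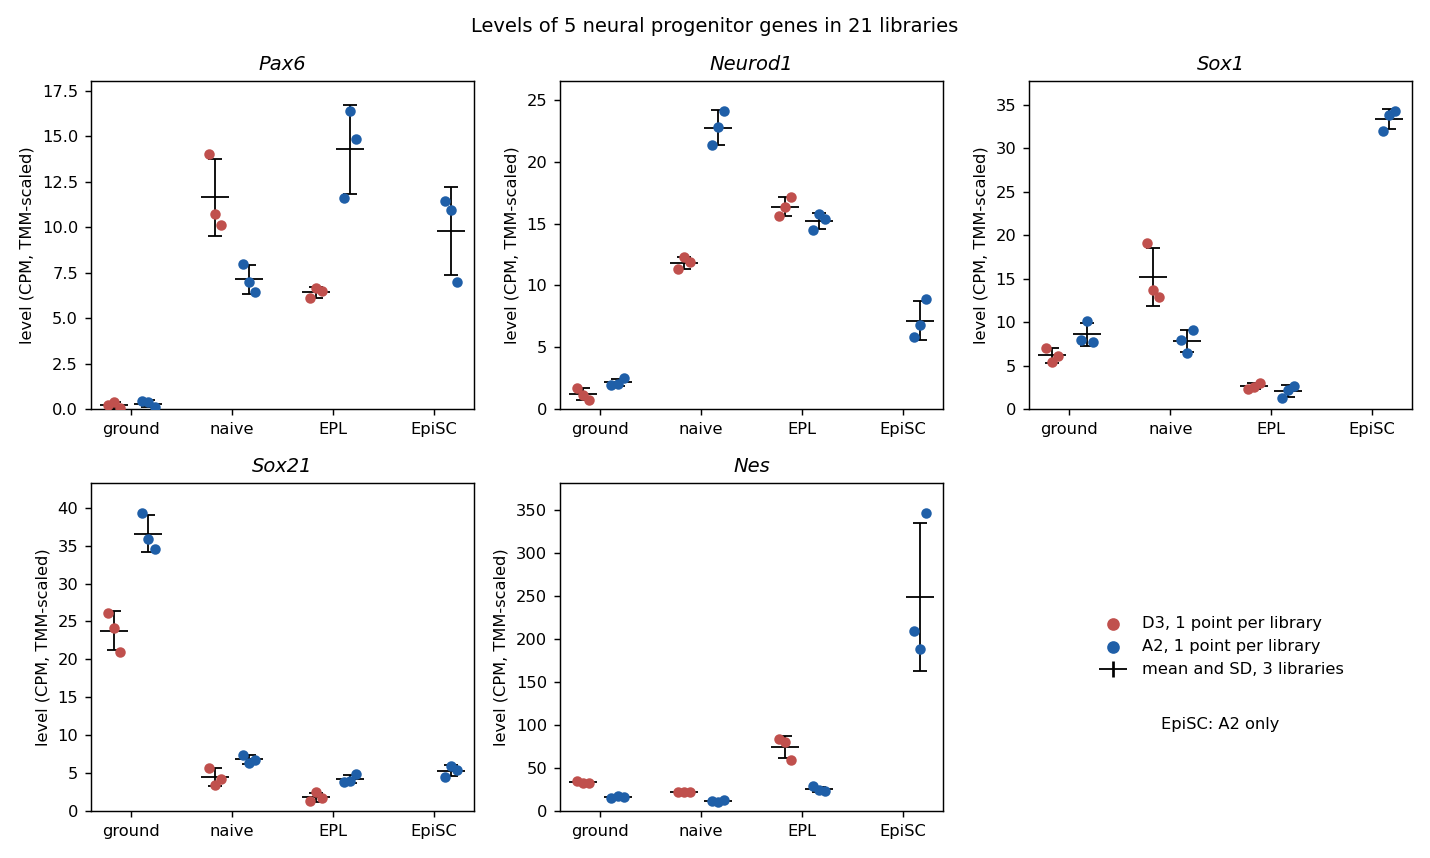
Level of each gene in every library (CPM, TMM-scaled, linear axis from 0), by stage, with D3 in red left of A2 in blue and the mean and SD of 3 libraries in black. Pax6 and Neurod1 lie near 0 in ground-state cells, Sox21 is high there, and Sox1 and Nes are highest in A2 EpiSCs, at means of 33.4 and 248 CPM.

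The bases just upstream of the genes that moved most when 2i was removed are shown because Pax6 and Neurod1 rose while Sox21 fell. RefSeq windows on GRCm38.p6, from 250 bases before to 50 after a transcription start, were found for all 5 genes (6 windows), and both strands were searched for 8 motifs. The octamer bound by POU factors was searched as ATGCAAAT, and the cyclic-AMP response element (CRE) as TGACGTCA. The box bound by the factor NF-Y was searched as CCAAT. The core bound by TCF and LEF factors was searched as CTTTGA, and the E-box bound by bHLH factors as CANNTG. The GC box bound by Sp1 was searched as GGGCGG. The STAT site was searched as TTCNNNGAA. The box bound by the general factor TBP was searched as TATAAA. Each stretch printed ends before the start of the gene in either RefSeq or GENCODE and, for Neurod1, before the neighbouring exon of Cerkl, and capitals mark the matches, none of which overlap each other. Pax6 (chr2:105668646-105668895, plus strand) has a CRE and a CCAAT box, Neurod1 (chr2:79456786-79456886, minus strand) an E-box and GC boxes, and Sox21 (chr14:118237031-118237280, minus strand) a TCF/LEF core.
Pax6: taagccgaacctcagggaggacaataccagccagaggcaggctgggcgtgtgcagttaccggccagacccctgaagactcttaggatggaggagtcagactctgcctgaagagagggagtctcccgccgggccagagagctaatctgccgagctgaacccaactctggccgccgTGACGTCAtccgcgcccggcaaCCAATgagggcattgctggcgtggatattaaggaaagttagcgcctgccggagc
Neurod1: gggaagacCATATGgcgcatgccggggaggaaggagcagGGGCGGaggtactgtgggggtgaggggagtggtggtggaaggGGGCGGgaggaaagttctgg
Sox21: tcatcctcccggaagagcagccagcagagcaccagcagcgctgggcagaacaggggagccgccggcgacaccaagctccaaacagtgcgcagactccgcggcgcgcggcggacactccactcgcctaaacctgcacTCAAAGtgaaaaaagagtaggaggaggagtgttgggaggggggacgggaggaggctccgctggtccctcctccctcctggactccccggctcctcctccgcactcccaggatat
Over whole windows, no motif was shared by Pax6 and Neurod1 except the E-box, which was in the second Pax6 window (chr2:105682213-105682512) and is in 72.3% of the 32851 windows of all genes. The CRE is in 1.79% of all windows, the CCAAT box in 37.4%, the GC box in 35.7% and the TCF/LEF core in 16%. The Sox1 window (chr8:12395269-12395568) has an octamer, which is in 1.74% of all windows, besides a CCAAT box and 3 GC boxes, and the Nes window (chr3:87970843-87971142) has 2 GC boxes. A match of letters is a description of the sequence and was not tied to binding by any data here.

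Pax6 (ENSMUSG00000027168) lies on chromosome 2 at 105668900 to 105697364 on GRCm38, plus strand, and was all but silent in the ground state. In ground-state cells it had 5, 8 and 1 reads in D3 libraries and 9, 7 and 2 reads in A2 libraries, or means of 0.227 ± 0.160 CPM in D3 and 0.307 ± 0.173 CPM in A2 (SD, n = 3 each). In naive cells it had 14.1, 10.7 and 10.1 CPM in D3 libraries and 8.01, 7.002 and 6.43 CPM in A2 libraries. Every naive library was above every ground-state library, and the D3 naive libraries were all above the A2 naive ones. In EPL cells the lines changed places, with 6.09, 6.67 and 6.50 CPM in D3 libraries and 11.6, 16.4 and 14.8 CPM in A2 libraries. EpiSC libraries had 11.4, 10.9 and 6.99 CPM, which overlapped A2 naive cells but not A2 EPL cells. From the lowest mean to the highest, the groups ran D3 ground, A2 ground, D3 EPL, A2 naive, A2 EpiSC, D3 naive and A2 EPL, and the only neighbours whose libraries did not overlap were A2 ground and D3 EPL.

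Neurod1 (ENSMUSG00000034701) lies on the minus strand of chromosome 2 at 79452521 to 79456751 and was likewise low wherever 2i was present, but its lines stood in another order. In ground-state cells it had 1.72, 1.11 and 0.766 CPM in D3 libraries and 1.94, 2.04 and 2.50 CPM in A2 libraries. In naive cells it had 11.3, 12.3 and 11.9 CPM in D3 libraries and 21.3, 22.8 and 24.1 CPM in A2 libraries. A2 naive cells were the highest group for this gene, above every other library. EPL cells had 15.6, 16.4 and 17.1 CPM in D3 libraries and 14.5, 15.7 and 15.4 CPM in A2 libraries, the only neighbouring groups in the order of levels whose libraries overlapped. EpiSC libraries had 5.83, 6.80 and 8.87 CPM, above all ground-state and below all naive and EPL libraries. Cerkl, a gene on the same strand, shares 201 bp (7.37%) of the Neurod1 exons, but averaged at most 1.09 CPM in any group.

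Sox1 (ENSMUSG00000096014), a single-exon gene on chromosome 8 at 12395295 to 12400126, plus strand, is the SoxB1 factor used most often to mark the neural plate. In ground-state cells it had 7.09, 5.39 and 6.13 CPM in D3 libraries and 7.99, 10.1 and 7.72 CPM in A2 libraries. In naive cells it had 19.1, 13.7 and 12.95 CPM in D3 libraries and 7.95, 6.51 and 9.11 CPM in A2 libraries. Only in D3 did naive cells stand clear of ground-state cells, and in A2 both groups overlapped. EPL libraries were the lowest of the series, with 2.33, 2.58 and 2.995 CPM in D3 and 1.30, 2.23 and 2.71 CPM in A2. EpiSC libraries were the highest and close together, with 32.0, 33.8 and 34.3 CPM. Sox1ot, a longer RNA gene that runs across Sox1 on the same strand without sharing an exon with it, was highest in D3 naive cells and A2 EpiSCs too, with means of 1.06 and 0.622 CPM against 0.125 to 0.425 CPM in the other groups.

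Sox21 (ENSMUSG00000061517), a single-exon gene on the minus strand of chromosome 14 at 118233232 to 118237030, was highest in the ground state, unlike the other members. In ground-state cells it had 26.1, 24.1 and 21.0 CPM in D3 libraries and 39.4, 35.8 and 34.6 CPM in A2 libraries. In naive cells it had 5.71, 3.38 and 4.21 CPM in D3 libraries and 7.38, 6.27 and 6.72 CPM in A2 libraries. No library of another stage reached the ground-state range in either line. EPL libraries had 1.30, 2.48 and 1.67 CPM in D3 and 3.84, 3.96 and 4.83 CPM in A2, and EpiSC libraries had 4.50, 5.94 and 5.45 CPM, overlapping A2 EPL cells. The antisense RNA gene Gm4675 shares 713 bp (18.8%) of the Sox21 exon, and the library kit does not mark strand. Gm4675 itself was counted at 0.501 CPM at most in other stages, against 0.841 CPM in D3 and 0.983 CPM in A2 ground-state cells, and reads of the shared stretch cannot be told apart.

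Nes (ENSMUSG00000004891) lies on chromosome 3 at 87971078 to 87980451, plus strand, and was the one member higher in D3 than in A2 at every stage that both lines shared. In ground-state cells it had 35.0, 32.0 and 32.3 CPM in D3 libraries and 14.6, 17.1 and 16.2 CPM in A2 libraries. In naive cells it had 22.0, 21.7 and 21.5 CPM in D3 libraries and 12.04, 9.89 and 12.1 CPM in A2 libraries. In both lines the naive libraries were all below the ground-state ones. EPL libraries had 84.2, 79.6 and 59.8 CPM in D3 and 28.7, 23.9 and 23.4 CPM in A2, and EpiSC libraries had 209.6, 188 and 347 CPM. No neighbouring groups overlapped in the order of Nes levels, which ran A2 naive, A2 ground, D3 naive, A2 EPL, D3 ground, D3 EPL and A2 EpiSC.

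Set per kilobase of exon, so that genes can be compared, none of these RNAs reached the level of Sox2, the SoxB1 factor of pluripotency itself. Mean levels in RPKM, CPM divided by the exon length in kilobases, were at most 1.22 for Pax6 in A2 EPL cells, 8.34 for Neurod1 in A2 naive cells, 6.91 for Sox1 in EpiSCs, 9.64 for Sox21 in A2 ground-state cells and 38.7 for Nes in EpiSCs. Sox2 stood between 115 RPKM in EpiSCs and 244 RPKM in A2 naive cells. The Pax6 value depends on the exon length used, because 26 annotated transcripts spread over 11694 bp, and the length of the longest transcript gives levels 2.64 times higher.

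The first comparison asked what differs in naive cells, 4 days after removal of 2i, from ground-state cells. As the mean of both lines, 3 members were called higher and 2 lower, beside 63.5% of all genes called (31.7% higher and 31.8% lower). Pax6 rose by 5.04 ± 0.23 (log2 ± SE, adjusted p = 1.8e-14, edgeR) and Neurod1 by 3.34 ± 0.12 (adjusted p = 3.37e-16, edgeR). Sox21 fell by 2.43 ± 0.11 (adjusted p = 1.45e-14, edgeR) and Nes fell by 0.55 ± 0.13 (adjusted p = 0.000749, edgeR). Sox1 rose by 0.58 ± 0.12 in this mean (adjusted p = 0.000255, edgeR), but the lines differed. Its difference was 1.30 ± 0.17 in D3 (adjusted p = 1.33e-06, edgeR) and -0.13 ± 0.17 in A2 (adjusted p = 0.566, edgeR), and the D3 difference exceeded the A2 one by 1.43 ± 0.25 (adjusted p = 0.00154, edgeR, interaction of line and stage). Sox1 was the only member with an interaction called here, beside 3.06% of all genes. Within single lines, 5 members were called in D3 (53.6% of all genes) and 4 in A2 (51% of all genes). The A2 value of Nes, -0.49 ± 0.19 (adjusted p = 0.0351, edgeR), was no longer called under scaling to the total count (adjusted p = 0.0801, edgeR) or without any of 5 of its 6 libraries (-0.54 to -0.40 over all 6).

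When 2i was removed, called genes of the same families other than the members went both ways only among intermediate filaments. In the SoxB, Pax and proneural bHLH families, those called were all higher. A further 74 genes came from 6 lists of neural genes and of whole families. The families also hold genes not particular to neural tissue, such as Vim and Pax8, and the 74 are called further listed genes below. Of these, 55 passed the filter. Among the 55, 35 were higher and 13 lower at the threshold in naive cells, beside 31.7% and 31.8% of all genes. Their median log2 difference was 0.99 against 0.01 over all genes tested. The lists were chosen with earlier results of these data known, so such counts and medians only describe the listed genes. In the SoxB family, Sox3 rose by 2.26 ± 0.19 (adjusted p = 6.39e-10, edgeR) and Sox2 by 0.16 ± 0.05 (adjusted p = 0.00909, edgeR), and Sox14 did not pass the filter. Pax8, a paired-box factor of kidney, thyroid and the midbrain-hindbrain boundary, rose by 5.83 ± 0.27 (adjusted p = 1.8e-14, edgeR). Of 12 proneural bHLH genes, only Neurod1 and Neurog3 passed the filter. Neurog3, the factor that starts the endocrine programme of the pancreas, rose by 1.96 ± 0.36 (adjusted p = 5.16e-05, edgeR). Among 10 intermediate filament genes, 6 were called higher and 4 lower: Ina, alpha-internexin of young neurons, rose by 3.20 ± 0.08 (adjusted p = 8.87e-19, edgeR), whereas the neurofilament genes Nefm and Nefl fell by 4.65 ± 0.13 and 2.57 ± 0.07 (adjusted p = 2.79e-18 and 2.65e-18, edgeR).

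**Figure D2:**
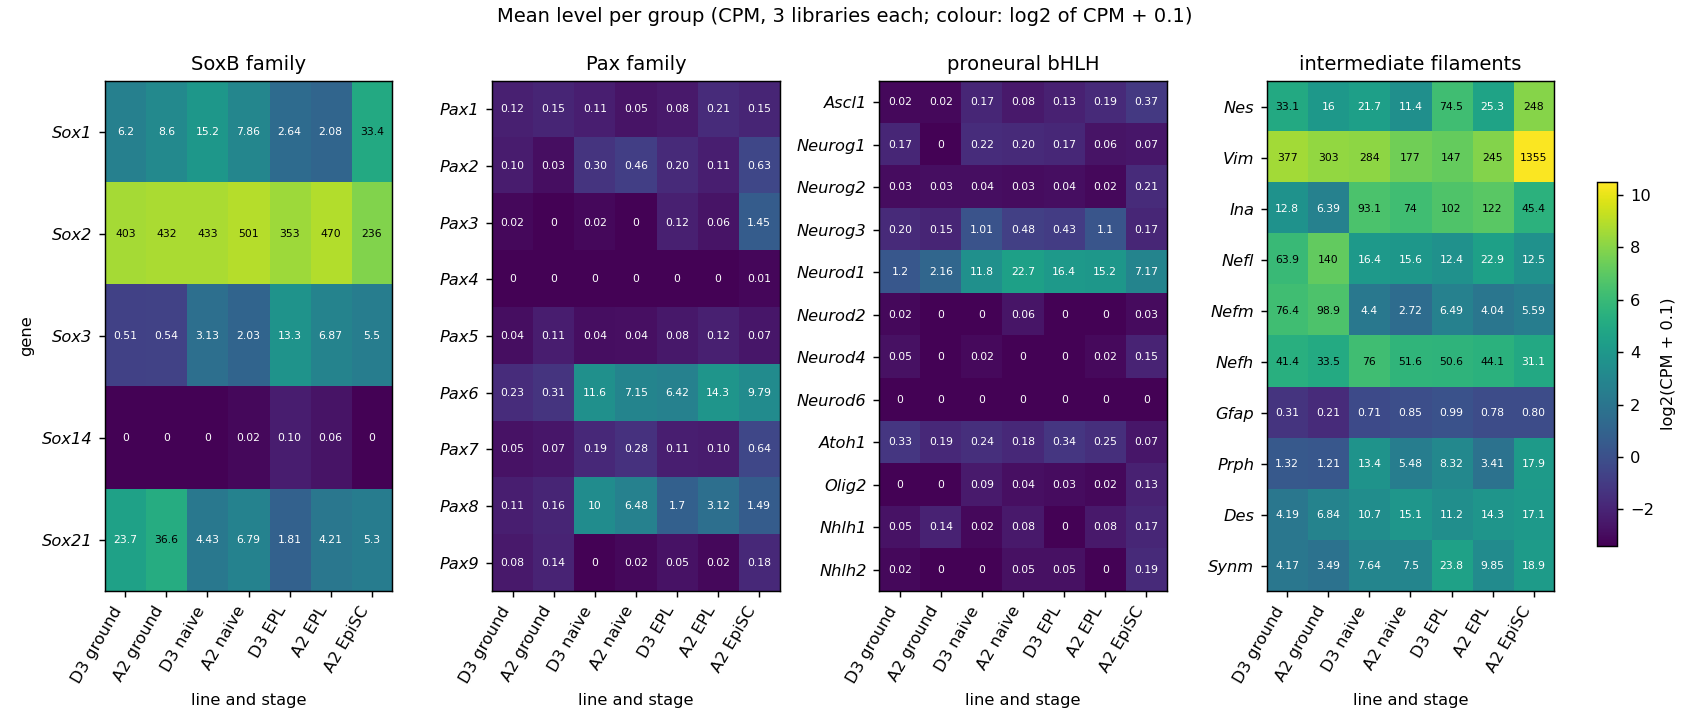
Mean level of each gene in 4 families (rows) in each line and stage (columns), written as CPM and coloured by log2(CPM + 0.1). Rows are not corrected for gene length, so levels are to be compared along a row, as for Sox21, at 1.81 to 6.79 CPM in the other stages against 23.7 and 36.6 CPM in D3 and A2 ground-state cells.

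The lists of other neural progenitor markers and of neuronal differentiation genes also held genes called in both directions. They share Sox3, Nefl and Nefm with the families above. Of 26 other progenitor markers that passed the filter, naive cells had 13 called higher and 9 lower, beside 31.7% and 31.8% of all genes. The share of lower ones was thus near that of all genes. Pou3f1, a POU factor of the epiblast and neural plate, rose by 4.22 ± 0.16 (adjusted p = 3.85e-16, edgeR), and the SoxC factor Sox11 rose by 3.49 ± 0.12 (adjusted p = 1.11e-16, edgeR). Meis2, a TALE homeobox factor, fell by 4.32 ± 0.10 (adjusted p = 8.28e-20, edgeR). Of 16 genes of neuronal differentiation, 11 were called higher and 3 lower, beside the same shares of all genes. The lower ones were Stmn3 (-0.59 ± 0.10, adjusted p = 3.78e-05, edgeR) and the neurofilament genes Nefm and Nefl, already counted above. The zinc finger factor Insm1 rose by 6.91 ± 0.38 (adjusted p = 3.37e-13, edgeR) and Gap43, a growth cone protein, rose by 5.13 ± 0.20 (adjusted p = 6.15e-16, edgeR). In a list of 12 endocrine factors, which also holds Pax6 and Neurod1, 8 passed the filter, and of these 3 were called higher and 1 lower, beside 31.7% and 31.8% of all genes. The higher ones were Insm1, Pax6 and Neurod1, and the lower one was Isl1, a LIM homeobox factor (log2 -1.05 ± 0.44, adjusted p = 0.043, edgeR).

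EPL cells, made with proline and less LIF, were next set against ground-state cells. As the mean of both lines, 3 members were called higher and 2 lower, beside 66.3% of all genes (33.1% higher and 33.2% lower). Pax6 was again far above its ground-state level, by 5.12 ± 0.23 (adjusted p = 8.57e-15, edgeR), and Neurod1 was higher by 3.29 ± 0.12 (adjusted p = 2.88e-16, edgeR). Nes rose by 0.92 ± 0.12 (adjusted p = 6.88e-07, edgeR). Sox21 fell by 3.41 ± 0.12 (adjusted p = 1.28e-16, edgeR) and Sox1 fell by 1.63 ± 0.15 (adjusted p = 1.75e-09, edgeR). The rise of Neurod1 was 3.76 ± 0.18 in D3 and 2.82 ± 0.17 in A2, which differed by 0.94 ± 0.27 (adjusted p = 0.021, edgeR), beside 13.3% of all genes with a called interaction. That call was lost without A2 ground replicate 3 (0.81, adjusted p = 0.0855, edgeR), without D3 ground replicate 2 (0.86, adjusted p = 0.0732, edgeR) and without D3 ground replicate 3 (0.70, adjusted p = 0.098, edgeR).

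In each line taken alone all 5 members were called too, beside 57.8% of all genes in D3 and 54.8% in A2. Both comparisons above share the ground-state libraries. Of the 55 further listed genes tested, 34 were called higher and 11 lower in EPL than in ground-state cells, beside 33.1% and 33.2% of all genes. Their median log2 difference was 1.53 against 0.00 over all genes. Pou3f1 was higher by 6.89 ± 0.14 (adjusted p = 7.73e-21, edgeR), Sox3 by 4.18 ± 0.16 (adjusted p = 6e-16, edgeR) and Pax8 by 4.03 ± 0.32 (adjusted p = 1.65e-10, edgeR). Otx2, a homeobox factor of the epiblast and the anterior neural plate, was higher by 4.64 ± 0.09 (adjusted p = 7.05e-21, edgeR).

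Set directly against naive cells, EPL cells had less Sox1 and Sox21 and more Nes, while Pax6 and Neurod1 went opposite ways in the lines. As the mean of both lines, 1 member was called higher and 2 lower, beside 51.2% of all genes (27.1% higher and 24.1% lower). Nes was higher by 1.47 ± 0.13 (adjusted p = 3.3e-09, edgeR). Sox1 fell by 2.21 ± 0.14 (adjusted p = 4.05e-11, edgeR) and Sox21 fell by 0.98 ± 0.14 (adjusted p = 4.31e-06, edgeR). The means of Pax6, 0.07 ± 0.14 (adjusted p = 0.689, edgeR), and Neurod1, -0.06 ± 0.09 (adjusted p = 0.654, edgeR), do not show what each line did. Within D3 (44.9% of all genes called) and within A2 (32.8%), all 5 members were called.

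Pax6 fell in D3 by 0.85 ± 0.20 (adjusted p = 0.00137, edgeR) and rose in A2 by 1.003 ± 0.20 (adjusted p = 0.000422, edgeR). Neurod1 rose in D3 by 0.47 ± 0.14 (adjusted p = 0.00765, edgeR) and fell in A2 by 0.58 ± 0.13 (adjusted p = 0.00171, edgeR). The D3 difference minus the A2 difference was -1.86 ± 0.28 for Pax6 (adjusted p = 0.000127, edgeR) and 1.05 ± 0.19 for Neurod1 (adjusted p = 0.000812, edgeR). These were the members with a called interaction, beside 12.7% of all genes, and leaving out any single library ended neither call. In Pax6 the D3 EPL libraries were all below the D3 naive ones and the A2 EPL libraries all above the A2 naive ones. In Neurod1 it was the reverse, again without overlap.

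**Figure D3:**
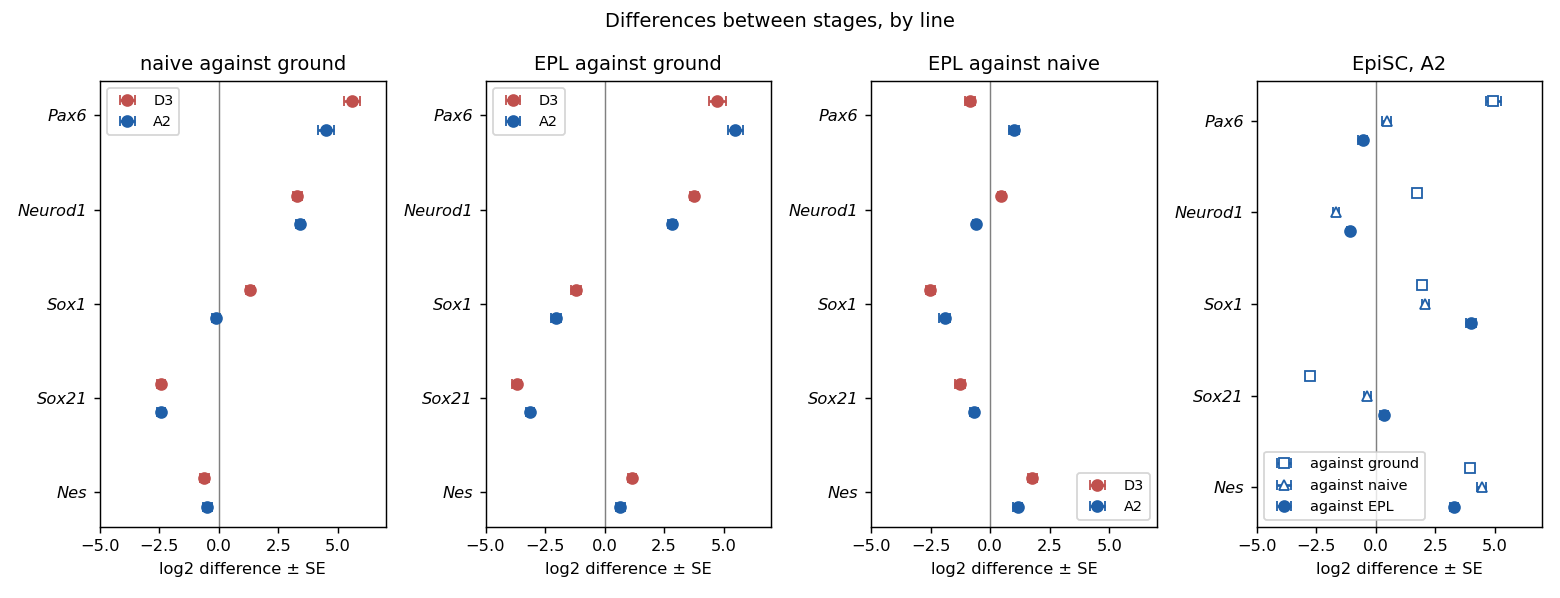
Log2 difference of each gene between stages with its SE, for D3 (red, above) and A2 (blue, below), and for EpiSCs against 3 stages within A2. In EPL against naive cells, Pax6 lies at -0.85 in D3 and 1.003 in A2, and Neurod1 at 0.47 in D3 and -0.58 in A2.

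Some relatives of both genes also differed between the lines at this step, but not in the same way. Pax8 fell in both lines, and the interaction of Neurog3 was opposite in sign to that of Neurod1. The interactions of Pax2, Pax3 and Pax7 were not called (adjusted p = 0.415, 0.62 and 0.628, edgeR). Pax8 fell by 2.55 ± 0.25 in D3 (adjusted p = 3.92e-08, edgeR) and fell by 1.05 ± 0.24 in A2 (adjusted p = 0.00169, edgeR), with an interaction of -1.50 ± 0.35 (adjusted p = 0.00615, edgeR). Neurog3 averaged 0.430 CPM in D3 EPL against 1.01 CPM in D3 naive cells, and 1.102 CPM in A2 EPL against 0.483 CPM in A2 naive cells, with an interaction of -2.40 ± 0.56 (adjusted p = 0.00621, edgeR). Hes3, a bHLH repressor that keeps progenitors dividing, had an interaction of -2.84 ± 0.54 (adjusted p = 0.00129, edgeR), and Prom1, which encodes the progenitor surface protein prominin-1, one of 1.15 ± 0.27 (adjusted p = 0.00588, edgeR). Of the 55 further listed genes tested, 3 had a called interaction above 0 and 12 one below 0, beside 12.7% of all genes called in either direction. Their median was -0.16 against 0.02 over all genes. In a fit with the replicate number as a block, 53.2% of the interactions called over all genes were above 0. For the step itself, 21 of the 55 were called higher and 18 lower in EPL than in naive cells, beside 27.1% and 24.1% of all genes.

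Next, D3 was set against A2 within each stage. In the ground state, 1 member was called higher and 2 lower in D3, beside 20.1% of all genes (9.13% higher and 10.9% lower). Nes was higher in D3 by 1.05 ± 0.18 (adjusted p = 0.000136, edgeR). Sox21 had a log2 difference of -0.62 ± 0.14 (adjusted p = 0.00195, edgeR) and Neurod1 one of -0.83 ± 0.23 (adjusted p = 0.0121, edgeR). The Neurod1 call was lost without A2 ground replicate 3 (-0.71, adjusted p = 0.0667, edgeR), without D3 ground replicate 2 (-0.76, adjusted p = 0.0572, edgeR) and without D3 ground replicate 3 (-0.60, adjusted p = 0.0886, edgeR). Pax6, at 1 to 9 reads a library, gave a difference of -0.40 ± 0.62 (adjusted p = 0.725, edgeR), and a difference of this size could not be detected at this depth.

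In naive cells all 5 members differed between the lines, beside 29.9% of all genes (14.5% higher and 15.4% lower). Sox1 was higher in D3 by 0.95 ± 0.17 (adjusted p = 0.000162, edgeR), Nes by 0.94 ± 0.19 (adjusted p = 0.000562, edgeR) and Pax6 by 0.71 ± 0.20 (adjusted p = 0.009, edgeR). Neurod1 had a log2 difference of -0.94 ± 0.13 (adjusted p = 1.37e-05, edgeR) and Sox21 one of -0.61 ± 0.18 (adjusted p = 0.011, edgeR). D3 naive replicate 1 was the highest naive library for Pax6 and Sox1. Without it the Pax6 difference was 0.56 (adjusted p = 0.0542, edgeR) and no longer called. The Sox21 call was lost without A2 naive replicate 1 (-0.54, adjusted p = 0.0519, edgeR) or D3 naive replicate 2 (-0.45, adjusted p = 0.0779, edgeR).

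In EPL cells 1 member was called higher and 2 lower in D3, beside 29.4% of all genes (15.6% higher and 13.8% lower). Nes was higher in D3 by 1.55 ± 0.17 (adjusted p = 3.85e-07, edgeR), whereas Pax6 had a log2 difference of -1.15 ± 0.20 (adjusted p = 0.000118, edgeR) and Sox21 one of -1.20 ± 0.22 (adjusted p = 0.000194, edgeR). Sox1 (0.36 ± 0.25, adjusted p = 0.306, edgeR) and Neurod1 (0.11 ± 0.13, adjusted p = 0.599, edgeR) were not called. Of the 55 further listed genes tested, 7 were called higher in D3 and 5 lower in the ground state, beside 9.13% and 10.9% of all genes. In naive cells the counts were 18 and 3, beside 14.5% and 15.4%. In EPL cells they were 16 and 11, beside 15.6% and 13.8%.

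EpiSCs were set against the other A2 stages last. Against EPL cells, 2 members were called higher and 2 lower, beside 70.4% of all genes (39.1% higher and 31.3% lower). Sox1 was higher by 4.00 ± 0.20 (adjusted p = 8.44e-14, edgeR) and Nes by 3.29 ± 0.17 (adjusted p = 2.71e-13, edgeR). Neurod1 fell by 1.08 ± 0.14 (adjusted p = 5.03e-07, edgeR) and Pax6 fell by 0.55 ± 0.19 (adjusted p = 0.013, edgeR). Sox21, at 0.34 ± 0.18 (adjusted p = 0.0964, edgeR), was not called. Under scaling to the total count, which moved the median of all genes to 0.27 against 0.07 with TMM and the share of called genes that were higher to 68.6% against 55.5%, Pax6 was not called (-0.34, adjusted p = 0.113, edgeR) and Sox21 was (0.54, adjusted p = 0.0124, edgeR). The Pax6 call was also lost without EpiSC replicate 3 (-0.37, adjusted p = 0.0677, edgeR) and without A2 EPL replicate 2 (-0.44, adjusted p = 0.0735, edgeR).

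Against A2 naive cells, 3 members were called higher and 1 lower in EpiSCs, beside 70.3% of all genes (39.1% higher and 31.2% lower). Nes was higher by 4.45 ± 0.19 (adjusted p = 6.89e-15, edgeR) and Sox1 by 2.09 ± 0.16 (adjusted p = 1.76e-10, edgeR), and Neurod1 fell by 1.66 ± 0.14 (adjusted p = 4.22e-10, edgeR). Sox21, at -0.35 ± 0.17 (adjusted p = 0.066, edgeR), was not called. Pax6, at 0.46 ± 0.20 (adjusted p = 0.0424, edgeR), was called narrowly: 4 of the 6 fits that left out a library lost the call, down to 0.32 without EpiSC replicate 1 (adjusted p = 0.188, edgeR), and so did 3 other alternatives. Against A2 ground-state cells, 4 members were called higher and 1 lower, beside 73.2% of all genes (39.1% higher and 34.1% lower). The differences were 4.94 ± 0.32 for Pax6, 3.96 ± 0.18 for Nes, 1.96 ± 0.16 for Sox1, 1.73 ± 0.17 for Neurod1 and -2.78 ± 0.15 for Sox21. The 3 comparisons share the EpiSC libraries.

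The level of Nes and the sums of fibroblast markers and of muscle and endothelial markers were each highest in EpiSC replicate 3 and lowest in replicate 2. EpiSC replicate 3 had the most Nes, at 347 CPM, the most Vim (the mesenchymal filament vimentin), at 1789 CPM, and the largest fibroblast sum, at 4075 CPM, together with the least Pax6 and the least Pou5f1 (399 CPM). Neurod1 was highest in replicate 3 too, at 8.87 CPM against 5.83 and 6.80 CPM in replicates 1 and 2. EpiSC replicates 1 and 2 had 209.6 and 188 CPM of Nes, 1218 and 1057 CPM of Vim and fibroblast sums of 3225 and 2964 CPM. Nes amounted to 6.50%, 6.35% and 8.52% of the fibroblast sum in replicates 1, 2 and 3. Without replicate 3, Nes was still higher in EpiSCs than in EPL cells, by 2.96 (adjusted p = 4.78e-15, edgeR). Sox1 varied less, between 32.0 and 34.3 CPM, and its difference from EPL cells without replicate 3 was 3.97 (adjusted p = 3.76e-13, edgeR). The 9 muscle and endothelial markers summed to 124, 114 and 140 CPM in EpiSC replicates 1, 2 and 3, against 54.9 to 58.8 CPM in A2 EPL cells. Of the 6 of them that passed the filter, 4 were called higher and 0 lower in EpiSCs than in EPL cells (edgeR), beside 39.1% and 31.3% of all genes. Their median log2 difference was 2.30 against 0.07 over all genes. The sum of all 9 was 94.7 to 109 CPM in A2 naive and ground-state cells. It was 31.3 to 37.5 CPM in D3 EPL cells, the group second highest in Nes. In libraries outside EpiSCs, only 2 or 3 of the 9 exceeded 1 CPM. Pecam1, in this list, was itself lower in EPL than in ground-state cells (log2 -1.82 ± 0.05, adjusted p = 1.8e-18, edgeR). In EPL cells it was lower in D3 than in A2 (-1.10 ± 0.08, adjusted p = 3.99e-10, edgeR). The sum does not show how many muscle or endothelial cells were present. The part of either marker list in the EpiSC levels of the members was not tested. In the other 18 libraries, Nes ranged from 9.89 to 84.2 CPM while the fibroblast sum was at most 42.5 CPM.

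**Figure D4:**
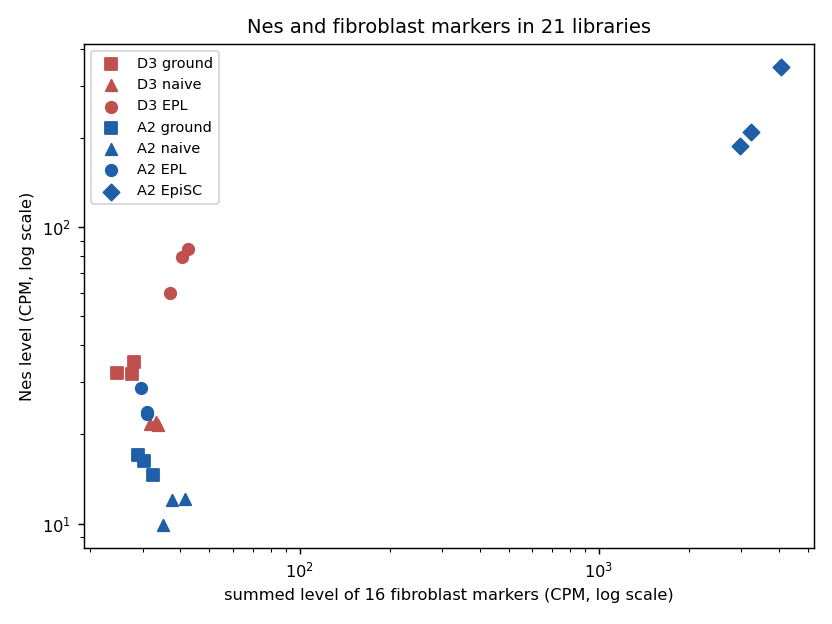
Nes level (CPM) of each of the 21 libraries against the summed level of 16 fibroblast markers (CPM), both on log scales, by line (D3 red, A2 blue) and stage (symbols). The 3 EpiSC libraries stand apart at sums of 2964 to 4075 CPM, and D3 EPL libraries reach 59.8 to 84.2 CPM of Nes at sums of at most 42.5 CPM.

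The further listed genes were mixed in direction in EpiSCs. Of the 55 further listed genes tested, 28 were called higher and 18 lower than in A2 EPL cells, beside 39.1% and 31.3% of all genes. Their median log2 difference was 0.47 against 0.07 over all genes. Among patterning factors of the neural tube and crest, Pax3 was higher by 4.49 ± 0.54 (adjusted p = 6.84e-07, edgeR), Irx3 by 4.42 ± 0.28 (adjusted p = 4.11e-12, edgeR) and Zic1 by 3.95 ± 0.38 (adjusted p = 5.24e-09, edgeR). Others went the other way: Foxd3 fell by 2.73 ± 0.14 (adjusted p = 1.45e-13, edgeR) and Gbx2 fell by 0.94 ± 0.14 (adjusted p = 4.81e-06, edgeR). The level of Pax3 was low, at 0.234 RPKM in EpiSCs and 0.009 RPKM in A2 EPL cells. Dcx, doublecortin of migrating neurons, was higher by 5.52 ± 0.59 (adjusted p = 3.77e-07, edgeR) but averaged only 2.08 CPM. Ina fell by 1.42 ± 0.10 (adjusted p = 4.39e-11, edgeR) and Otx2 fell by 2.16 ± 0.11 (adjusted p = 1e-13, edgeR). Sox2 fell by 0.99 ± 0.07 (adjusted p = 5.88e-11, edgeR). Several of the higher genes are also made by mesenchymal cells, and the fibroblast sums given above stand beside all of them.

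For each member, the 4 genes with the most similar profile were taken by Pearson's r of log2 CPM over the 21 libraries, which share stage, line and depth, so that r only describes. Pax6 was most like Evc (r = 0.973), Egr1 (0.972), Kcnh2 (0.972) and Foxp1 (0.969). Neurod1 was most like Pwwp2b (r = 0.978), Igsf9 (0.970), Grhl2 (0.968) and Tnfsf11 (0.968). Foxp1, a forkhead factor, averaged 69.4 to 103 CPM in the groups of other stages, against 1.57 and 2.04 CPM in D3 and A2 ground-state cells. For Sox21 the genes were Cd38 (r = 0.985), Fbrsl1 (0.981), Llgl2 (0.976) and Hk1 (0.975). Cd38, which encodes a surface enzyme that uses NAD, averaged 4.41 to 12.2 CPM in the groups of other stages, against 41.0 and 51.9 CPM in D3 and A2 ground-state cells. Sox1 was most like Msln (r = 0.973), Emp1 (0.961), Nt5m (0.947) and Synpo2l (0.944), and Nes was most like Wls (0.971), Pls3 (0.966), Msl1 (0.965) and Txndc5 (0.956). The order of such close values of r depends on the libraries used: over the 18 libraries other than EpiSCs, none of the 4 genes was named again for Pax6 or Neurod1, 2 were for Sox1, 2 for Sox21 and 1 for Nes.

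Among the members themselves, Pax6 and Neurod1 had r = 0.889 over 21 libraries but a Spearman rank correlation of 0.455, since both separate 2i from the rest while their order among the other groups differs. Pax6 and Sox21 had r = -0.847.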

How the data were processed

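RNA sequencing was done on 21 libraries, 3 for each of 7 line and stage groups, with a kit that does not mark strand, per the labels' protocols. The authors deposited raw counts of reads for each Ensembl gene in a single table. HISAT2, SAMtools and featureCounts were used with GRCm38, per the submitters' processing notes, without versions, settings or annotation in the sources at hand. Of 39396 identifiers, 39344 matched GENCODE M21, which supplied coordinates and exon lengths.

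The filter filterByExpr (minimum count 10, minimum total 15) kept 16575 of the 28040 genes with a count. TMM factors were 1.136 to 1.145 in EpiSC libraries and 0.9326 to 1.007 in the others. edgeR 4.0.16 (R 4.3.3) fitted 1 quasi-likelihood model with a mean per group, and p-values were adjusted by Benjamini-Hochberg over all genes tested. The fit was also run on counts simulated from its own estimates of spread, with independent libraries, for EPL against ground-state cells alone. Such a run cannot show whether the replicates are technical. RPKM used the union of exons. Alternatives were RLE size factors, total-count scaling, no filter, a stricter filter (1 CPM and 10 counts in 3 libraries), DESeq2 1.42.0, only the groups compared, the replicate number as a block, and each library left out in turn. Named genes were the members, up to 4 called genes in each direction of a list with at least 1 CPM in the higher group, of which only some are printed, and the 4 most alike genes (log2 CPM, prior count 2). The members and lists were chosen with earlier results of these data known. No library was a duplicate: chi-square per degree of freedom between replicates was 2.913 to 32.12.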

Additional observations from a re-analysis of the deposited data

Results flagged for a closer look

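In naive against ground-state cells, the difference of Sox1 was larger in D3 than in A2 by 1.43 on the log2 scale (adjusted p = 0.00154, edgeR interaction), with all 3 D3 naive libraries above the D3 ground-state ones and overlapping groups in A2. In EPL against naive cells, Pax6 moved in opposite directions in D3 and A2 (D3 minus A2 difference -1.86, adjusted p = 0.000127, edgeR interaction), and Neurod1 did so with the other sign (1.05, adjusted p = 0.000812, edgeR interaction). In EPL against ground-state cells, the rise of Neurod1 was larger in D3 than in A2 by 0.94 (adjusted p = 0.021, edgeR interaction), a call that 3 of the 12 fits without a library did not give.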

How the results depend on the processing

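Of 1349 member values under the alternatives, 1301 kept their direction and side of the threshold, 25 were no longer called, 16 became called and 7 changed sign, all 7 in values that were not called. Of 270 counts of genes called, 265 stayed within 1.5 times the main count. The number of genes with a called interaction in naive against ground-state cells was 846 without a filter, against 508, and 310 to 515 when a library was left out. The causes of these changes were not tested, beyond the fewer libraries or more genes that the settings themselves bring.

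Pax6 in EpiSC against naive cells was not called with RLE size factors (0.44, adjusted p = 0.0509, edgeR), with only the groups compared (0.40, adjusted p = 0.086, edgeR) or with the replicate block (0.44, adjusted p = 0.0513, edgeR). Scaling to the total count gave -0.41 for Nes in naive against ground-state A2 cells, -0.024 for the Sox21 interaction in naive against ground-state cells, -0.34 for Pax6 and 0.54 for Sox21 in EpiSC against EPL cells. Without a filter, calls were gained for the interactions of Sox1 (0.82) and Nes (0.49) in EPL against ground-state cells and of Nes in EPL against naive cells (0.59), for Sox21 in EpiSC against naive cells (-0.34), and for Sox1 in D3 against A2 ground-state cells (-0.46). DESeq2 gained 3 of these (Sox1 interaction 0.82, Sox21 -0.37, Sox1 -0.47), and the fits of only the groups compared gained the Nes interactions (0.48 and 0.60), Sox21 (-0.41) and Sox1 (-0.47).

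Leaving out a library gave -0.54 to -0.40 for Nes in naive against ground-state A2 cells, and interactions in that step of -0.33 to 0.23 for Neurod1 and -0.21 to 0.17 for Sox21. Interactions in EPL against ground-state cells were 0.70 to 1.26 for Neurod1, 0.59 to 1.04 for Sox1 and -0.86 to -0.41 for Sox21. For D3 against A2 the ranges were -0.95 to 0.024 for Pax6 and -1.16 to -0.60 for Neurod1 in the ground state, and 0.56 to 0.81 for Pax6 and -0.82 to -0.45 for Sox21 in naive cells. For EpiSCs they were 0.32 to 0.64 for Pax6 and -0.45 to -0.26 for Sox21 against naive cells, and -0.68 to -0.37 for Pax6 against EPL cells.

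Replicate numbers showed no clear sign of pairing the libraries: of 27 same-numbered pairs, 3 had a correlation of deviations above 0.1 (range -0.159 to 0.21), and 5 of 21 libraries correlated best with their own number. With 3 libraries a group, such a check cannot exclude a pairing, on which the labels are silent. With the replicate block, the count of genes called stayed within 1.5 times the main count in every comparison, and no other member's call changed. Depth limits Pax6 in ground-state cells, at 1 to 9 reads a library. Of 35 levels per kilobase, 8 moved by more than 1 SD with the longest transcript's length.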

Other observations

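Myt1, a zinc finger gene of neuronal differentiation outside the 5 members, differed between the lines by more than any of them did in naive and EPL cells: its log2 differences, D3 against A2, were -5.92 ± 0.34 and -5.83 ± 0.33, and the largest of a member was that of Nes in EPL cells, 1.55 ± 0.17 (± SE). Over the 3 libraries of each group it had 2, 4 and 5 reads in D3 ground-state, naive and EPL cells, against 254, 285 and 274 reads in the same stages of A2. Its 3 differences of D3 against A2 were called (adjusted p = 1.74e-11, 3.42e-11 and 1.46e-11 in that order of stages, edgeR). The EpiSCs, labelled as line A2, had 17 reads, and averaged 0.238 ± 0.011 CPM against 5.33 ± 0.42 CPM in A2 EPL cells (SD, n = 3 each, log2 difference -4.45 ± 0.26, adjusted p = 1.3e-12, edgeR). Myt1 was singled out after its values were seen, and the cause was not tested.

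Among crest and placode genes, Tfap2a and Eya1 were, like Sox21, lower in naive than in ground-state cells. Tfap2a, a factor of early ectoderm and neural crest, averaged 2.12 ± 0.18 CPM in naive against 19.4 ± 1.3 CPM in ground-state D3 cells, and 2.35 ± 0.74 CPM in naive against 9.57 ± 0.83 CPM in ground-state A2 cells (SD, n = 3 each). Eya1, a cofactor of placode development, fell by 2.07 ± 0.09 in the mean of both lines (log2 ± SE, adjusted p = 9.39e-15, edgeR). Both genes fell further in D3 than in A2, with an interaction of line and stage of -1.18 ± 0.24 for Tfap2a (adjusted p = 0.00651, edgeR) and -0.81 ± 0.19 for Eya1 (adjusted p = 0.0161, edgeR). Of the 9 of 10 crest and placode genes that passed the filter, 4 were called higher and 3 lower in naive than in ground-state cells, beside 31.7% and 31.8% of all genes, so that the share of lower ones was near that of all genes.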
